A study of Mus musculus with 12 samples.

Results

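The cell cycle and DNA replication genes examined here are 34 mouse genes that dividing cells switch on, taken by symbol from a deposited expression table of mouse dorsal root ganglion, and all 34 had a row in it, among 38594 rows with Ensembl gene identifiers. Of them, 23 act in mitosis and 11 act in the copying of DNA. Dorsal root ganglia house the bodies of sensory neurons with their glia; the study took the lumbar ones (L1 to L6) from male mice of the strain C57BL/6J, 6 to 12 weeks old and labelled as naive, with no genetic change and no treatment named. Tissue was taken at zeitgeber time (ZT, hours from the onset of light) 2, 8, 14 or 20, with 3 libraries at each time and 12 in all. All groups share strain, sex, age range and tissue, and differ by the hour of collection alone, as far as the labels say. The study's title concerns clock genes of pain-sensing neurons, and the comparisons below ask whether the level of proliferation genes differed with the hour.

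As background, most mature sensory neurons have left the cell cycle for good, so the machinery of division in a ganglion belongs mainly to its other cells, such as glia, endothelium, fibroblasts and immune cells. Before S phase the MCM2-7 ring is loaded on DNA as the core of the replicative helicase, ribonucleotide reductase and thymidylate synthase supply nucleotides, and PCNA clamps the polymerases to the template. At mitosis, cyclin B with CDK1 drives entry, Aurora and Polo kinases with kinesins build the spindle, the BUB proteins hold the checkpoint, and CDC20 and UBE2C turn the anaphase-promoting complex against cyclin B. In regenerating liver, the circadian clock is known to time entry into division, through targets such as the kinase WEE1.

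The mitotic genes were expressed at low levels and the replication genes at middling ones, and none of the 34 passed the test for a difference between times. With edgeR's quasi-likelihood test and Benjamini-Hochberg adjustment over 25809 genes, 0 of 34 reached an adjusted p under 0.05 for any difference between the 4 times, against 0.0504% of all genes tested (13 genes). For a component with a 24-h period the count was also 0 of 34, against 0.0659% (17 genes). The smallest adjusted p among the 34 was 0.540, for Nusap1 in the first test, and 0.945, for Mcm5 in the second. At an unadjusted p under 0.05, 3 of 34 passed the first test (Nusap1, Kif23 and Mcm5), where 6.19% of all genes did, and 1 of 34 passed the second (Mcm5), where 5.2% did. DESeq2 and limma-trend also called 0 of 34 in both tests. In the same fit, the clock genes Arntl, Per2, Per3, Nr1d1, Nr1d2, Dbp and Ciart passed the first test, and Tef passed the second with them, 8 of the 19 clock genes listed.

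Arntl, which encodes the clock activator BMAL1, shows how a called difference looks in these libraries: its level was 6.40, 6.05 and 6.26 CPM at ZT2, 2.90, 2.43 and 3.14 at ZT8, 2.52, 2.58 and 2.80 at ZT14 and 6.75, 5.54 and 6.88 at ZT20. The ZT2 and ZT20 libraries were all above the ZT8 and ZT14 libraries (edgeR adjusted p = 0.00110 for any difference). Dbp, a clock output factor, had a mean of 32.1 ± 4.72 CPM at ZT8 and one of 8.26 ± 0.820 CPM for ZT20 (SD, n = 3 each; edgeR adjusted p = 0.0386).

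Levels are given as CPM (counts per 1000000 of the normalized library total). The deposited values look proportional to coverage (the most frequent value in a library is shared by genes of differing length), in which case they are per length; every order of levels between genes given here rests on that reading, which no source used here states. The sum of the sensory neuron markers was 16989.5 to 18064.5 CPM in the 12 libraries, and all 12 of those markers passed the filter on low values, as the tissue label would have it. Library totals on this scale were 89.6 to 124.7 in units of 1000000, which stands for about 47.9 to 67.1 of the same unit in reads. The labels name no animal for a library, so p-values here measure the spread between libraries, and part of it may be technical. The library numbers run in the order of the times, so that a batch of collection or preparation cannot be told apart from the hour. In bulk tissue, fewer cells of a type and less RNA per cell cannot be told apart either.

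Promoters are shown first, because members of the mitotic and replication groups are known to be switched on through different elements, and the few shown let a reader set the groups side by side. RefSeq promoter sequences on GRCm38.p6, each 250 bases before to 50 bases after an annotated start, were found for 29 of the 34 genes (31 promoters). Aurkb, Ccna2, Kif20a, Tpx2 and Mcm4 are named only. On both strands, a search was made for the cell cycle genes homology region (CHR, TTTGAA), for the CCAAT box (CCAAT), for 4 forms of the E2F site (TTTCCCGC, TTTGGCGC, TTTCGCGC and TTTGCCGC) and for the E-box of the clock activators (CACGTG). E2F matches on opposite strands may overlap each other. In the 6 promoters below, written 5′ to 3′ on the gene's strand, capitals mark the matches.

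Mki67, chr7:135716330-135716629, minus strand: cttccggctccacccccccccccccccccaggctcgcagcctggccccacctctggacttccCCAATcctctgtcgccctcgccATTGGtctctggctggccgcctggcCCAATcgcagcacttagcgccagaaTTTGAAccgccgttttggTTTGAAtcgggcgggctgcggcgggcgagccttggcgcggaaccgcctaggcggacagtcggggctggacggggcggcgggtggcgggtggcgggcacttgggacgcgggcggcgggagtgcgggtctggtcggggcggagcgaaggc
Kif23, chr9:61946750-61947049, minus strand: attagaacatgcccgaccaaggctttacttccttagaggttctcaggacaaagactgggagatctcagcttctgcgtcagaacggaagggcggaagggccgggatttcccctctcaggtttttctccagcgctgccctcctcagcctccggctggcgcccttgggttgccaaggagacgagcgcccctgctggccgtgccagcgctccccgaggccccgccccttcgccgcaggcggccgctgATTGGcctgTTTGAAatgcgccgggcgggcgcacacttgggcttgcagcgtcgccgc
Nusap1, chr2:119618048-119618347, plus strand: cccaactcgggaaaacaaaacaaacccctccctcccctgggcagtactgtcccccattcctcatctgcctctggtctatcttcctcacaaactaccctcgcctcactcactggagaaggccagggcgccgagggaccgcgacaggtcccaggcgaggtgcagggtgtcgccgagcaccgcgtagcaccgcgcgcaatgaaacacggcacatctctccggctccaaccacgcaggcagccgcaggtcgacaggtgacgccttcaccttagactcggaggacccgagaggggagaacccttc
Mcm5, chr8:75109259-75109558, plus strand: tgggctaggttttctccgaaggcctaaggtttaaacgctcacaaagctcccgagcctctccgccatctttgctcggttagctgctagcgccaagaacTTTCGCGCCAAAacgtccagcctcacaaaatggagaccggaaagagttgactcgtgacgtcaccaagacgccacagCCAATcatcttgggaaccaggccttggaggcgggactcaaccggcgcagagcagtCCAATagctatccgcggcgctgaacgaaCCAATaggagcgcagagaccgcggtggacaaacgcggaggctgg
Mcm6, chr1:128359656-128359955, minus strand: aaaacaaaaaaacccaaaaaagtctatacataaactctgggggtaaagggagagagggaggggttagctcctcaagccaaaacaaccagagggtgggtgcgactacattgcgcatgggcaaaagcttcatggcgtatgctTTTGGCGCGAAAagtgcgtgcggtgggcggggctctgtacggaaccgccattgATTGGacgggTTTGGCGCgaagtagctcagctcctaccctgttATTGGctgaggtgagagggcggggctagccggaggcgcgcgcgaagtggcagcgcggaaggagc
Tyms, chr5:30073576-30073875, minus strand: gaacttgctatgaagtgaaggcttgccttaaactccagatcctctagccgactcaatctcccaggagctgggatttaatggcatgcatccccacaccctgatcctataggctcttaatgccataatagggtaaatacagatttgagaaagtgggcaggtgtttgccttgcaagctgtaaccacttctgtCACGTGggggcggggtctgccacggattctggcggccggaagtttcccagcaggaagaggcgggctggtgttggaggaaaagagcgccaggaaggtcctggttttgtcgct

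Mki67 and Kif23 stand for the mitotic group. The Mki67 promoter held the CHR letters at positions -116 and -98 (the annotated start is position 1, and the base before it -1) and CCAAT letters at 3 places upstream of them. Kif23 held a CCAAT box in the reverse sense at -7, followed by the CHR letters at 3. The CHR letters stood in 15 of 20 mitotic promoters (75.0%, 14 of 19 genes), in 1 of 11 replication promoters (9.1%, that of Mcm2) and in 17.9% of all 32851 promoters in the table. The CCAAT letters stood in 90.0% of the mitotic and 81.8% of the replication promoters, and in 37.4% of all.

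Mcm5 and Mcm6 are among the 4 replication genes with an E2F form, and do not stand for those without one. In both of them E2F forms on the 2 strands overlap: in Mcm5 at -153 and -149, and in Mcm6 at -110 and -106. One of the E2F forms was found in 36.4% of replication promoters (Mcm3, Mcm5, Mcm6 and Mcm7), in 5.0% of mitotic promoters (Cdk1) and in 2.3% of all promoters. Tyms is shown because it was the only member with the E-box letters, at -61; 7.2% of all promoters held them. Nusap1 is shown because it had the smallest p of any difference between the times, and none of the letters searched is in its window. A match is a description of the letters and does not show that a factor binds there.

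**Figure D1:**
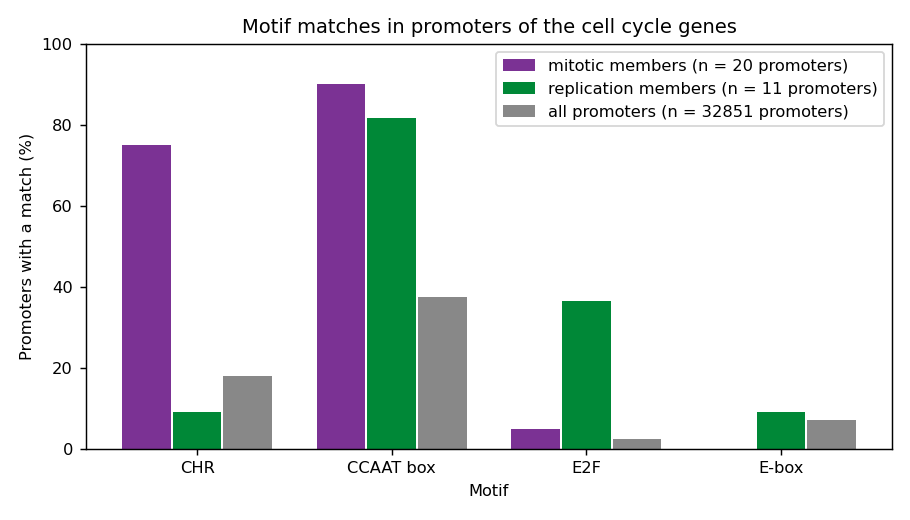
Share of promoters, in percent, with at least 1 match to each of 4 motifs on either strand, for 20 mitotic promoters (purple), 11 replication promoters (green) and all 32851 promoters (grey). CHR letters stand in 75.0% of mitotic and 9.1% of replication promoters, and E2F letters in 5.0% and 36.4%.

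Read as values per length, the replication genes were the more abundant group, with a median level of 5.79 CPM against 1.39 CPM for the mitotic genes and 3.49 CPM for all genes tested. Pcna, the sliding clamp that also serves DNA repair, stood alone at the top with a mean of 55.9 CPM over the 12 libraries (range 52.4 to 58.4), at the 87.8th percentile of all genes tested. Mcm4 followed at 10.2 CPM (9.28 to 11.0), then Rrm1, the large subunit of ribonucleotide reductase, at 8.84 CPM (8.25 to 9.40) and Mcm7 at 8.83 CPM (7.98 to 10.5). The ranges of Mcm4, Rrm1 and Mcm7 overlap, so their order does not exceed the spread between libraries. Of the other helicase subunits, Mcm6 had a mean of 6.28 CPM, Mcm2 of 5.79, Mcm5 of 2.69 and Mcm3 of 2.05. The 6 subunits of a ring that holds 1 copy of each spanned levels from 2.05 to 10.2 CPM. Rrm2, the subunit of ribonucleotide reductase that is made in S phase, was at 1.55 CPM, below Rrm1 in every library.

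No mitotic gene reached 10 CPM, 13 were between 1 and 10 CPM, and 10 were under 1 CPM. The highest were Aurka, the centrosomal Aurora kinase, at 6.00 CPM, the checkpoint kinase gene Bub1b at 5.53, Birc5 (survivin) at 4.44, the midzone organiser Prc1 at 4.24 and its partner kinesin Kif23 at 4.17. The genes most often used as marks of cycling cells were near the bottom: Top2a at 0.953 CPM, Mki67 at 0.569, Cdk1 at 0.419 and Ccnb1 at 0.402. Cenpf was lowest, at 0.0897 CPM, at percentile 6.61 of genes tested. At these levels a library held a median of about 7 approximate reads of Cenpf, 11.5 of Cdk1 and 116 of Mki67, against 1882.5 of Pcna. These numbers use the median length of a gene's annotated transcripts, short ones included. They are off where the transcript made is of another length. The exons of Cenpf cover 15433 bases over 6 transcripts, and those of Mki67 cover 10061 over 2. From Mcm6 down to Kif23, and again from Mcm5 down to Cenpe, the range over libraries of each gene overlapped that of the next in order.

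**Figure D2:**
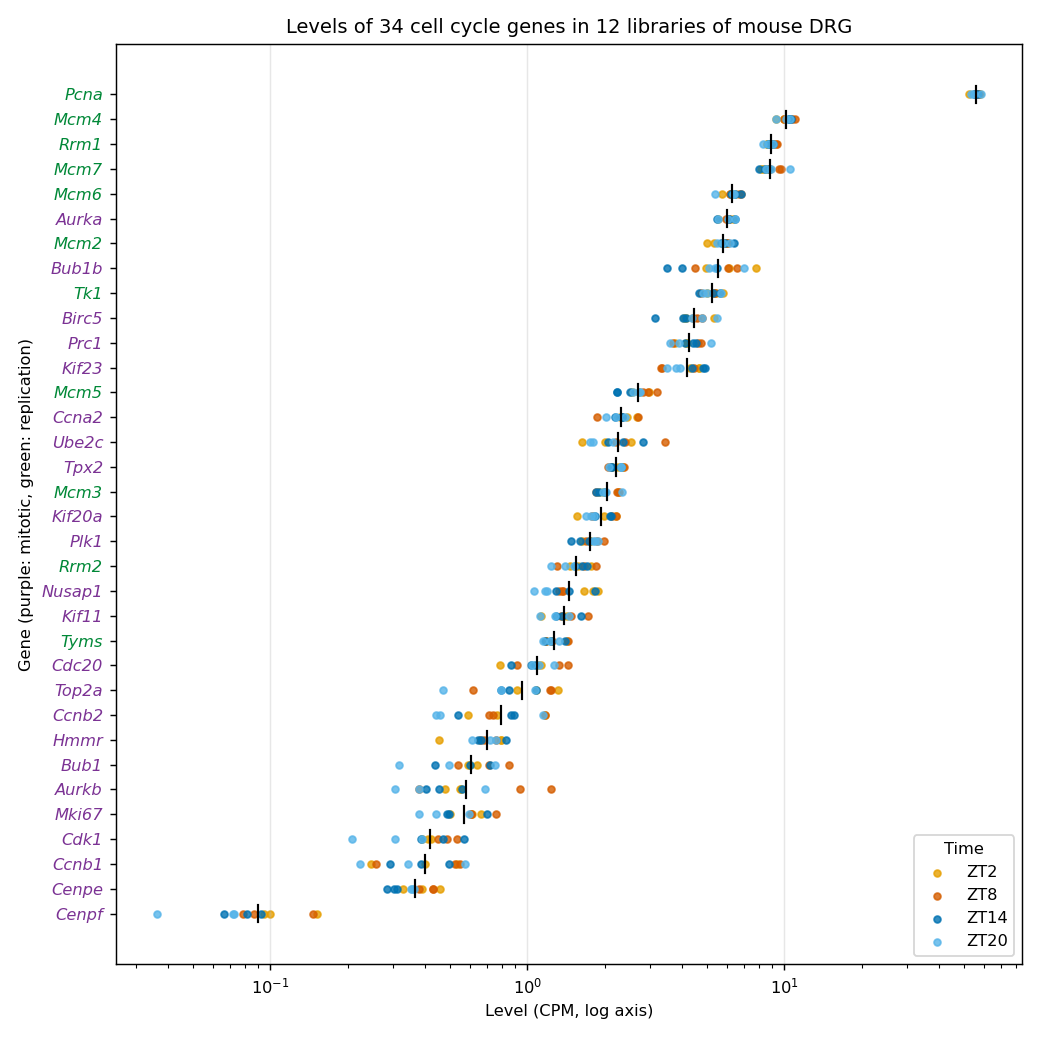
Level of each of the 34 genes in the 12 libraries (CPM, log axis), ordered by mean level, with 1 point per library coloured by time and a black bar at the mean of the 12. Replication genes (green names) hold the top 5 places, from Pcna at 55.9 CPM to Mcm6 at 6.28 CPM, and Cenpf is lowest at 0.0897 CPM.

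The spread between libraries of 1 time set what could be seen. The median SD of log2 CPM within times was 0.097 for the replication genes and 0.248 for the mitotic genes, against 0.194 for all genes tested. A 95% interval for a difference between 2 times had a median half-width of 0.19 on the log2 scale for a replication gene and 0.46 for a mitotic gene. For Pcna, the interval of ZT14 against ZT2 ran from -0.09 to 0.11 on the log2 scale. For Cenpf the same interval ran from -1.99 to 0.94, so that a decrease of several fold at ZT14 lay within it, while an increase of several fold did not.

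Among the replication genes, Pcna was the steadiest: 56.5, 57.5 and 52.4 CPM at ZT2, 56.6, 55.3 and 57.4 at ZT8, 56.96, 54.9 and 55.9 at ZT14 and 58.4, 53.5 and 54.9 at ZT20. The libraries of all 4 times overlap. Its 24-h component had an amplitude of 0.01 on the log2 scale (SE 0.02), that is, the height of the fitted curve above its own middle. Mcm5, a subunit of the helicase ring, was at 2.72, 2.98 and 2.55 CPM at ZT2, 2.94, 2.81 and 3.19 at ZT8, 2.50, 2.24 and 2.24 at ZT14 and 2.73, 2.58 and 2.74 at ZT20. All ZT14 libraries of Mcm5 lay below those of the other 3 times, and its 24-h amplitude was 0.14 (SE 0.05; unadjusted p = 0.0431 and adjusted p = 0.945 by edgeR).

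Mcm7, of the same ring, was at 8.12, 8.54 and 8.30 CPM at ZT2, 9.57, 8.77 and 9.71 at ZT8, 8.70, 7.98 and 8.39 at ZT14 and 10.5, 8.88 and 8.46 at ZT20. Its ZT8 libraries were above all of its ZT2 and ZT14 libraries, and its ZT20 libraries overlapped those of every other time. Mcm4 was at 9.99, 9.29 and 9.94 CPM at ZT2, 11.05, 10.01 and 10.7 at ZT8, 10.6, 10.4 and 10.5 at ZT14 and 9.28, 10.2 and 10.5 at ZT20. The ZT2 libraries of Mcm4 were below all ZT8 and ZT14 libraries and overlapped those of ZT20. Rrm1 was at 8.58, 8.57 and 8.78 CPM at ZT2, 9.30, 9.01 and 9.40 at ZT8, 9.08, 8.83 and 8.67 at ZT14 and 8.65, 8.25 and 9.01 at ZT20. Its ZT8 libraries exceeded those of ZT2 and of ZT20, with 9.24 ± 0.201 CPM at ZT8 and 8.64 ± 0.382 CPM at ZT20 (SD, n = 3). Adjusted p-values of edgeR for any difference between times were 0.737 for Mcm5, 0.867 for Mcm7, 0.915 for Mcm4 and 0.922 for Rrm1. The other replication genes (Mcm2, Mcm3, Mcm6, Rrm2, Tyms and the thymidine kinase gene Tk1) had means that differed between times by a log2 range of at most 0.23, that of Rrm2.

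Among the mitotic genes, Nusap1, which encodes a protein that bundles spindle microtubules, had the smallest p. Its level was 1.66, 1.89 and 1.80 CPM at ZT2, 1.36, 1.33 and 1.38 at ZT8, 1.29, 1.84 and 1.45 at ZT14 and 1.19, 1.17 and 1.06 at ZT20. The ZT20 libraries were below all others, the ZT2 libraries were above all ZT8 and ZT20 libraries, and the ZT14 libraries overlapped those of ZT2 and ZT8. The highest mean, at ZT2, was 1.78 ± 0.114 CPM and the lowest, at ZT20, was 1.14 ± 0.0702 CPM (SD, n = 3), a log2 range of 0.64 over the 4 times (edgeR unadjusted p = 0.00585, adjusted p = 0.540). Over its exons, 4.2% of bases are shared with Oip5, a gene on the opposite strand, and no strand setting is given in the sources used here, so reads in that stretch cannot be assigned.

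Kif23, the motor of the central spindle, was at 4.68, 4.28 and 4.65 CPM at ZT2, 3.35, 3.31 and 4.47 at ZT8, 4.82, 4.37 and 4.94 at ZT14 and 3.80, 3.49 and 3.91 at ZT20. Here the ZT20 libraries were below all ZT2 and ZT14 libraries, and 2 of the 3 ZT8 libraries were lower still. Birc5, the survivin subunit of the chromosomal passenger complex, had another order of times, with 4.08, 4.15 and 5.33 CPM at ZT2, 4.78, 4.41 and 4.60 at ZT8, 4.02, 3.13 and 4.15 at ZT14 and 4.80, 5.47 and 4.39 at ZT20. Its ZT14 libraries were below all ZT8 and ZT20 libraries. Cdk1, the kinase of mitotic entry, was at 0.423, 0.409 and 0.389 CPM at ZT2, 0.450, 0.535 and 0.489 at ZT8, 0.387, 0.567 and 0.469 at ZT14 and 0.306, 0.390 and 0.209 at ZT20. The ZT20 libraries of Cdk1 were below all ZT8 libraries, and 1 of them, at 0.390, lay within the range of ZT2 and ZT14. Adjusted p-values of edgeR for any difference were 0.711 for Kif23, 0.855 for Birc5 and 0.859 for Cdk1.

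Mki67, whose product Ki-67 coats mitotic chromosomes, was at 0.608, 0.659 and 0.502 CPM at ZT2, 0.604, 0.602 and 0.753 at ZT8, 0.488, 0.699 and 0.497 at ZT14 and 0.591, 0.381 and 0.442 at ZT20. Its ZT20 libraries were all below the ZT8 libraries and overlapped those of ZT2 and ZT14 (edgeR adjusted p = 0.927 for any difference). Top2a, the topoisomerase that untangles sister chromatids, was at 1.31, 1.08 and 0.910 CPM at ZT2, 0.613, 1.23 and 1.23 at ZT8, 0.794, 0.850 and 1.09 at ZT14 and 1.07, 0.471 and 0.788 at ZT20. The libraries of every pair of times overlap for Top2a (edgeR adjusted p = 0.960).

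**Figure D3:**
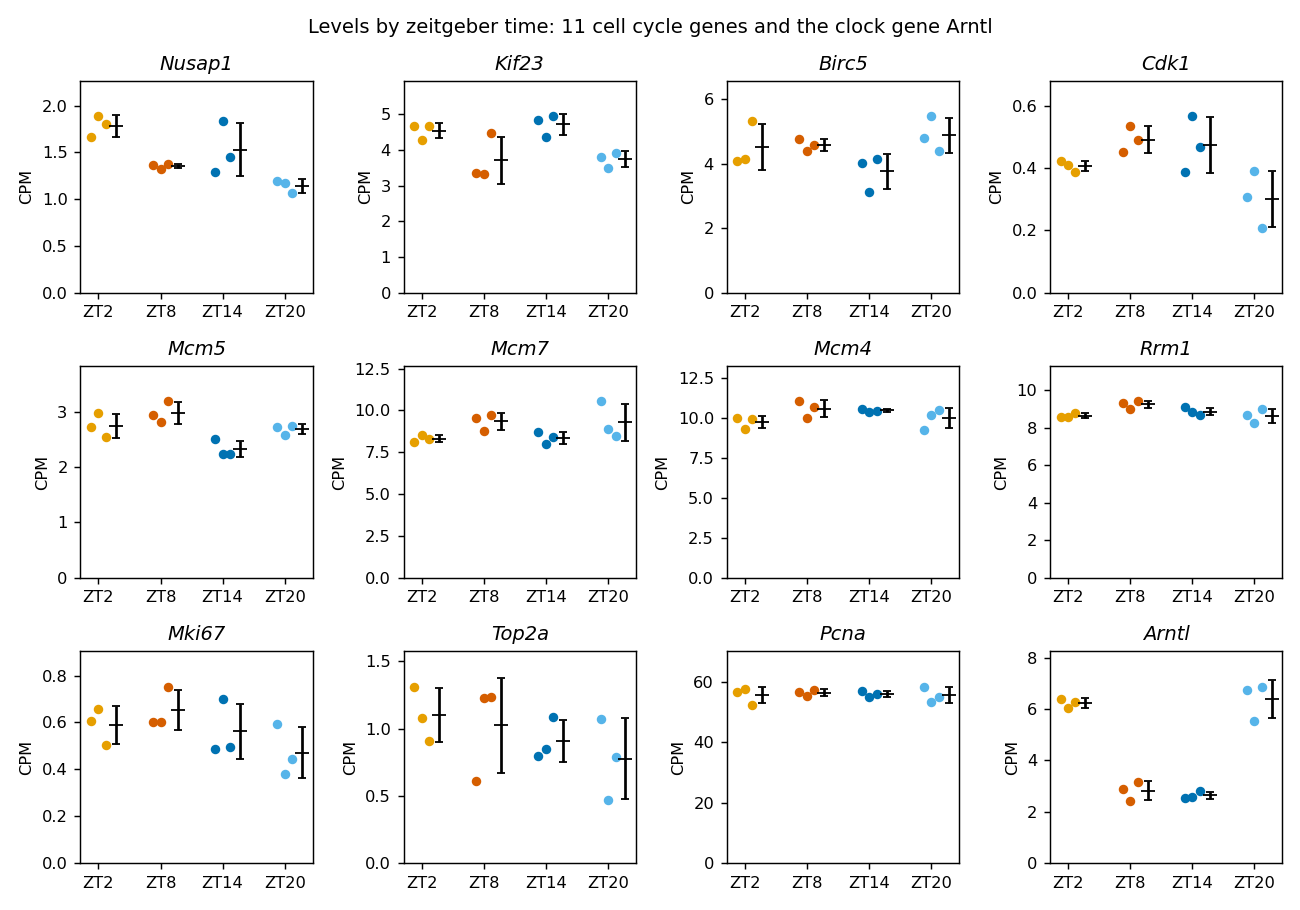
Level (CPM, axis from 0) of 11 cell cycle genes and, for scale, the clock gene Arntl at ZT2, ZT8, ZT14 and ZT20, with 1 point per library and, beside the points, the mean and SD of the 3. Arntl is 2.82 CPM at ZT8 and 6.39 CPM at ZT20 with no overlap, while Pcna stays between 52.4 and 58.4 CPM at all times.

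Setting opposite hours side by side, ZT20 against ZT8 gave the most uneven picture. The fitted level was lower at ZT20 for 29 of 34 genes (85.3%), where 49.5% of all genes tested were lower, and the median log2 fold change was -0.10 over the 34 and 0.00 over all genes. It was -0.22 over the mitotic and -0.06 over the replication genes. None of the 34 passed the edgeR test at an adjusted p under 0.05, against 0.0232% of all genes (6 genes), so no single gene is shown to differ. These genes were measured in the same 6 libraries, so their directions do not count as 29 separate observations: without ZT8 replicate 3, 23 of 34 were lower, and without the library richest in muscle markers at each time, ZT8 replicate 3 among them, 25 of 34 were (an alternative chosen after seeing the data).

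At an unadjusted p under 0.05, 3 of the 34 genes were lower at ZT20 (Cdk1, Aurkb and Ube2c), where 2.41% of all genes were, and 0 were higher, where 2.87% were. Cdk1 had a log2 fold change of -0.70 (SE 0.27, 95% interval -1.30 to -0.11). Aurkb, the kinase of the chromosomal passenger complex, had one of -0.91 (SE 0.40, 95% interval -1.79 to -0.02), resting on ZT8 libraries at 1.24, 0.379 and 0.939 CPM and ZT20 libraries at 0.683, 0.381 and 0.305, which overlap. Ube2c, the ubiquitin-conjugating enzyme of the anaphase-promoting complex, had one of -0.50 (SE 0.20, 95% interval -0.94 to -0.05). In each case the edgeR adjusted p was 0.928 or more.

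All 3 ZT20 libraries lay below all 3 ZT8 libraries for 8 of the 34 genes (Mki67, Cdk1, Nusap1, Cenpe, Cenpf, Ube2c, Mcm5 and Rrm1), 23.5% of them, where 4.54% of all genes tested did so. In the other direction it was 0 of 34, where 5.35% of all genes did. The mean was highest at ZT8 for 21 of 34 genes (61.8%, against 24.6% of all genes) and lowest at ZT20 for 17 of 34 (50.0%, against 26.6%). One library weighs in this: ZT8 replicate 3 held the highest value of the 12 for 8 of 34 genes and the lowest for 0. The summed level of the 34 genes was 162.7 CPM in that library and 147.8 to 155.7 CPM in the other 11.

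**Figure D4:**
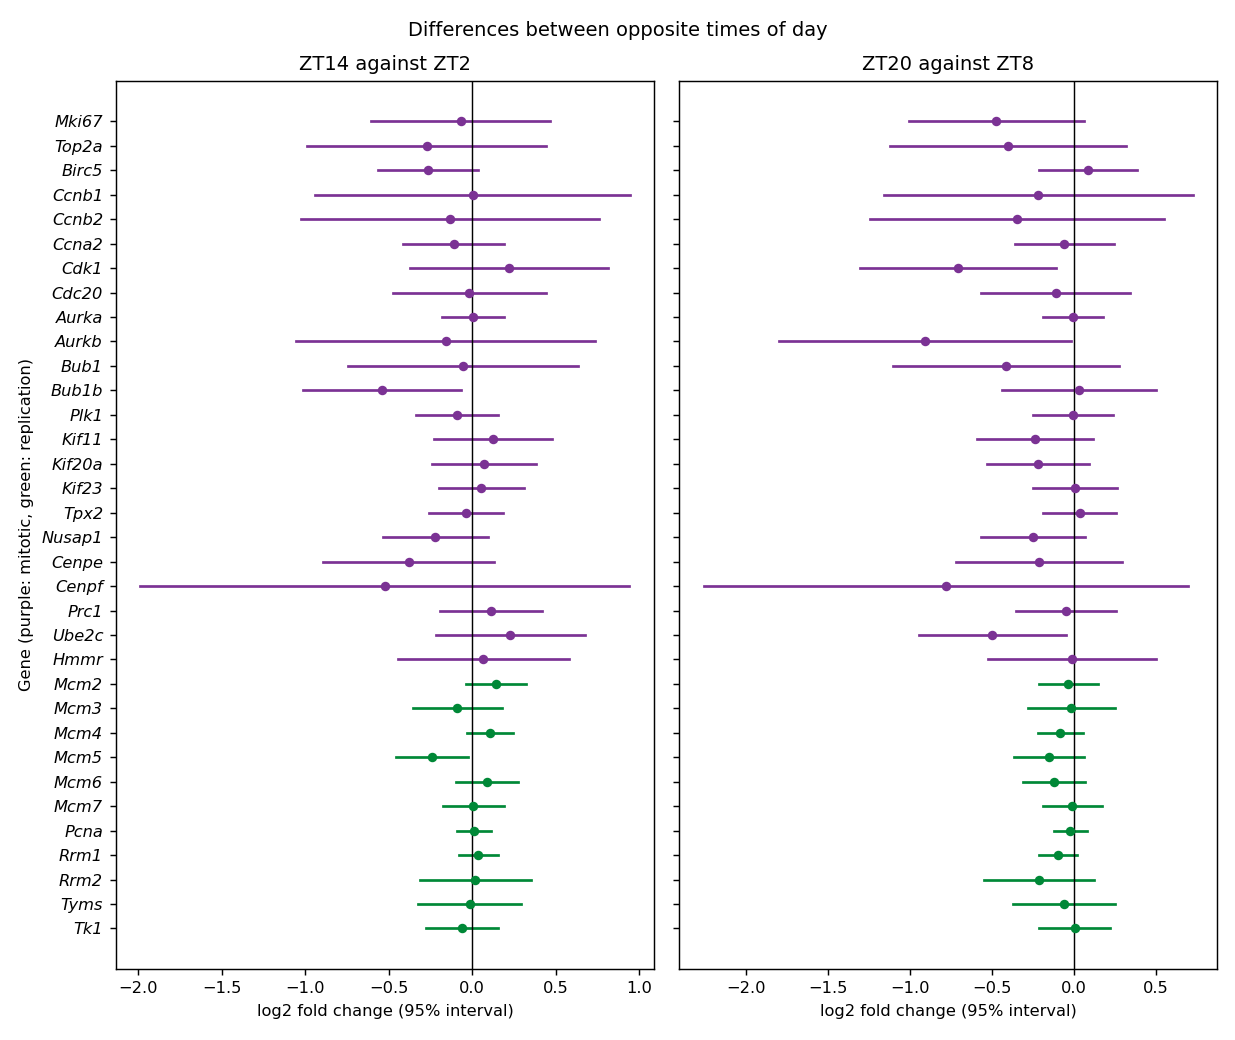
Log2 fold change of each of the 34 genes with its 95% interval for ZT14 against ZT2 (left) and ZT20 against ZT8 (right), mitotic genes in purple and replication genes in green. The interval includes 0 for 32 of 34 genes on the left and 31 of 34 on the right, where 29 of 34 points lie below 0.

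The opposite hours ZT14 and ZT2 showed no such lean. The fitted level was higher at ZT14 for 16 of 34 genes (49.9% of all genes), with a median log2 fold change of -0.02. By group, it was higher for 9 of 23 mitotic genes (median -0.06) and 7 of 11 replication genes (median 0.01). All ZT14 libraries lay below all ZT2 libraries for 3 of 34 genes (Cenpe, Cenpf and Mcm5), where 5.38% of all genes did so. They lay above for 1 of 34 (Mcm4), where 5.79% of all genes did. Again 0 of 34 passed the edgeR test, against 0.0465% of all genes (12 genes). At an unadjusted p under 0.05, 2 of 34 were lower at ZT14 (Bub1b and Mcm5; 2.29% of all genes) and 0 were higher (2.9%). Bub1b, a kinase of the spindle checkpoint, had a log2 fold change of -0.54 (SE 0.22, 95% interval -1.01 to -0.07), from ZT2 libraries at 4.96, 7.78 and 6.12 CPM and ZT14 libraries at 4.01, 5.48 and 3.49, which overlap.

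Between neighbouring hours, 0 of 34 genes passed the edgeR test at any step. All genes called were 0.0194% (5 genes) for ZT8 against ZT2, 0% (0 genes) for ZT14 against ZT8, 0.0426% (11 genes) for ZT20 against ZT14 and 0.00387% (1 gene) for ZT2 against ZT20. For ZT14 against ZT8, 1627 genes had an unadjusted p under 0.05, DESeq2 called 106 and limma-trend called 0. Unadjusted p-values under 0.05 were found for 2, 2, 4 and 2 of the 34 in these steps, against 5.78%, 6.3%, 6.28% and 7.05% of all genes. Fitted levels were above those of the earlier hour for 26 of 34 genes at ZT8 (50.6% of all genes), for 8 at ZT14 (49.1%), for 9 at ZT20 (50.1%) and for 23 at ZT2 (49%). The steps share their libraries, so these counts are not independent of each other or of the opposite hours.

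Other genes of the same pathways did not pass either, and 0 were called in each of 6 lists by edgeR for any difference between the times. At an unadjusted p under 0.05, which 6.19% of all genes tested reached, these were 3 of 55 other mitosis genes, 4 of 64 other replication genes, 0 of 17 cyclins and kinases of G1 and S, 4 of 18 inhibitors and pocket proteins, 2 of 17 transcription factors of the cycle and 0 of 7 S-phase histone and chromatin genes. In the mitosis list Knl1, Kif14 and Aspm, and in the histone list 1 gene, Hist1h3c, were under the filter on low values. For ZT20 against ZT8 the median log2 fold change was -0.09 over the other mitosis genes and 0.00 over the other replication genes.

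Foxm1, the transcription factor that drives mitotic genes, came closest among these regulators, at 1.18, 1.09 and 1.25 CPM at ZT2, 1.70, 1.92 and 2.06 at ZT8, 1.30, 1.59 and 1.54 at ZT14 and 1.40, 1.43 and 1.42 at ZT20. All its ZT8 libraries were above those of the other times (edgeR unadjusted p = 0.00180, adjusted p = 0.400). Gtse1, which encodes a p53-binding protein of dividing cells, had its ZT2 libraries below all others, at 0.922, 0.869 and 0.938 CPM against 1.13 to 1.70 CPM (adjusted p = 0.393). Cenpa, the histone of centromeres, had its highest mean at ZT8, 2.32 ± 0.224 CPM, and its lowest at ZT20, 1.55 ± 0.257 CPM (adjusted p = 0.697). In the replication list the smallest p-values were those of Tipin, a fork protection factor, with means from 7.50 ± 0.166 CPM (ZT14) to 9.71 ± 0.279 CPM (ZT8), and of Slbp, which binds histone messages (adjusted p = 0.449 and 0.697).

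Among regulators of entry into the cycle and into mitosis, Wee1, the inhibitory kinase of CDK1 and a known clock target, was at 9.51, 8.45 and 7.71 CPM at ZT2, 9.33, 9.02 and 9.83 at ZT8, 9.19, 10.4 and 10.1 at ZT14 and 10.4, 8.49 and 9.93 at ZT20, with all times overlapping (edgeR adjusted p = 0.898). The p21 gene Cdkn1a, an inhibitor of cyclin-dependent kinases, was more abundant than each of the 34, at 102 ± 6.37 CPM at ZT2, 90.3 ± 5.80 CPM at ZT8, 96.5 ± 1.27 CPM at ZT14 and 103 ± 3.58 CPM at ZT20 (SD, n = 3; adjusted p = 0.736). Ccng2, an atypical cyclin listed with the inhibitors, had means from 17.98 ± 0.615 CPM (ZT14) to 20.7 ± 1.02 CPM (ZT8) (adjusted p = 0.666). The G1 cyclin gene Ccnd1 had means from 27.5 ± 2.42 CPM (ZT8) to 32.1 ± 3.24 CPM (ZT2), and the S-phase cyclin gene Ccne2 from 4.33 ± 0.0885 CPM (ZT2) to 5.10 ± 0.454 CPM (ZT8) (adjusted p = 0.867 and 0.853). E2f5, a repressor of the E2F family, had means from 13.5 ± 0.583 CPM (ZT2) to 16.1 ± 1.23 CPM (ZT14) (adjusted p = 0.563). Of the S-phase histone genes, H2afz and Hist1h1b had the smallest p-values (adjusted p = 0.850 and 0.921).

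Precursor cells of the bone marrow divide, and of 3 lists of their markers the neutrophil and erythroid ones had their lowest sums at ZT20, while the B cell one did not. The summed level of 14 markers of neutrophil precursors was 31.7 to 52.1 CPM at ZT20, against 78.9 to 109.2 at ZT8, 85.0 to 124.7 at ZT14 and 70.3 to 162.4 at ZT2. All 14 had a lower fitted level at ZT20 than at ZT8 (49.5% of all genes tested did), with a median log2 fold change of -1.17, and 10 were lower at an unadjusted p under 0.05 (2.41% of all genes) while 0 had an adjusted p under 0.05 by edgeR. The summed level of 15 erythroid precursor markers was 564.3 to 745.0 CPM at ZT20, 1201.3 to 1269.6 at ZT8, 1860.5 to 2017.5 at ZT14 and 982.4 to 1975.3 at ZT2, and 14 of the 15 had a lower fitted level at ZT20 than at ZT8 (again beside 49.5% of all genes). That list includes the globin genes Hba-a1 and Hbb-bt, and the neutrophil list includes the granule protein genes Ngp, Camp and Ltf. Neither sum is therefore a measure of dividing precursors alone. The B cell precursor markers summed to 88.3 to 91.4 CPM at ZT20, 89.6 to 100.4 at ZT8, 82.5 to 93.3 at ZT14 and 89.8 to 92.4 at ZT2, so all times overlap. Of the 7 among 11 that passed the filter (Igll1, Dntt, Rag1 and Rag2 did not), 5 had a higher fitted level at ZT20 than at ZT8, with a median log2 fold change of 0.12. The median SD of log2 CPM within times was 0.52 over these 7, a wide spread beside so steady a sum. The share of each gene in the sum was not examined, so the sum need not follow B cell precursors. No marker of these 3 lists was at 0 in all libraries. The part of these cells in the levels of the cell cycle genes was not tested.

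Alas2, the first enzyme of haem synthesis in red cell precursors, passed the test for any difference between times, at 12.6, 10.5 and 5.90 CPM at ZT2, 7.56, 7.55 and 7.20 at ZT8, 12.9, 14.2 and 13.4 at ZT14 and 3.48, 2.41 and 2.40 at ZT20 (edgeR adjusted p = 0.0220). Its ZT20 libraries were the lowest of the 12 and its ZT14 libraries the highest. Hba-a1 of the erythroid list passed for ZT20 against ZT14 alone (adjusted p = 0.0354). Ngp, a granule protein gene of neutrophil precursors, was at 30.4, 20.01 and 12.9 CPM at ZT2, 11.9, 16.1 and 18.3 at ZT8, 17.6, 20.9 and 20.7 at ZT14 and 9.56, 4.97 and 5.96 at ZT20 (adjusted p = 0.448). The ZT20 libraries of Ngp were below all others.

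Across the 12 libraries, Mki67 and Ngp had a Pearson r of 0.677 on log2 CPM (permutation p = 0.015, adjusted over 4 relations 0.0599) and a Spearman rho of 0.636 (permutation p = 0.0302, adjusted 0.121). As deviations from the mean of each time, r was 0.696. Without the 2 libraries farthest from the median of Ngp, ZT20 replicates 2 and 3, r was 0.19. Those 2 were picked as extremes of Ngp, which narrows its range, so the drop cannot show what the pooled relation rests on. Mki67 with Alas2 gave r = 0.541 (permutation p = 0.0713, adjusted 0.143) and rho = 0.42 (permutation p = 0.176, adjusted 0.352), with r = 0.602 within times and -0.04 without the same 2 libraries. Pcna with Ngp gave r = 0.373 (permutation p = 0.232, adjusted 0.309) and rho = 0.175 (permutation p = 0.586, adjusted 0.667). Pcna with Alas2 gave r = 0.287 (permutation p = 0.368, adjusted 0.368) and rho = 0.14 (permutation p = 0.667, adjusted 0.667). Within times the r of Pcna was 0.714 with Ngp and 0.787 with Alas2, and without the 2 libraries it was -0.01 and -0.10. No pooled relation passed after adjustment over the 4. The permutations shuffled all 12 libraries without regard to time, so these p-values mix differences between times with those within them. The r values within times were not tested.

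**Figure D5:**
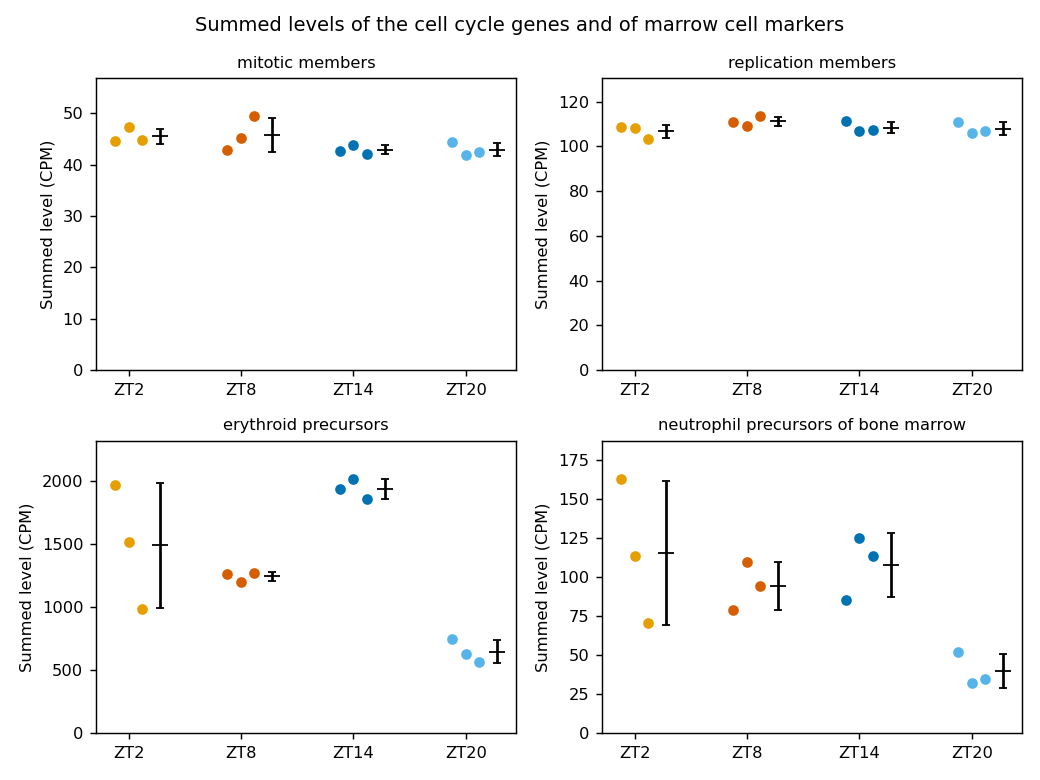
Summed level (CPM, axes from 0) of the 23 mitotic genes, the 11 replication genes, 15 erythroid precursor markers and 14 neutrophil precursor markers at each time, with 1 point per library and, beside the points, the mean and SD of the 3. These erythroid and neutrophil lists are lowest at ZT20 (564.3 to 745.0 and 31.7 to 52.1 CPM), while the sums of the cell cycle genes at ZT20 (41.9 to 44.3 and 105.9 to 111.1 CPM) overlap those of ZT8. A sum follows its most abundant genes, such as Pcna with a mean of 55.9 CPM, and need not follow genes of low level.

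Resident cell types were also listed. Macrophage markers summed to 77.0 to 122.9 CPM, endothelial markers to 145.5 to 193.2 CPM and fibroblast markers to 497.7 to 866.4 CPM over the 12 libraries, and the ZT8 and ZT20 libraries overlap in each list. In the macrophage, endothelium and fibroblast lists, 0 genes were called by edgeR for any difference between times, with 1 of 10, 2 of 8 and 1 of 8 at an unadjusted p under 0.05 (6.19% of all genes tested). In the satellite glia list, Fabp7, a fatty acid binding protein of these glia, was called (adjusted p = 0.000178). Skeletal muscle markers, from tissue that lies beside the ganglia, varied most, from 23.4 to 766.7 CPM, and the highest library of each time was ZT2 replicate 2, ZT8 replicate 3, ZT14 replicate 1 or ZT20 replicate 1.

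Whether muscle RNA bears on the level of Ube2c was not tested. Ube2c shares 22.8% of its exonic bases (592 bases) with Tnnc2, the fast muscle troponin C gene on the opposite strand, so without strand their reads cannot be told apart there. Ube2c was at 2.01, 2.53 and 1.64 CPM at ZT2, 2.22, 2.40 and 3.43 at ZT8, 2.81, 2.36 and 2.06 at ZT14 and 1.75, 2.15 and 1.81 at ZT20, and Tnnc2 at 41.8, 48.2 and 9.33 CPM at ZT2, 18.9, 11.5 and 40.3 at ZT8, 48.8, 12.5 and 20.8 at ZT14 and 106, 3.62 and 13.6 at ZT20. The highest Ube2c values of ZT2, ZT8 and ZT14 fell in the libraries with the most Tnnc2 of their time, while at ZT20 the library with 106 CPM of Tnnc2 had the lowest Ube2c. The other large overlaps were those of Kif20a with Cdc23 (29.3% of exonic bases), of Mcm7 with 4 genes (12.6%), of Ccna2 with Exosc9 (12.5%) and of Prc1 with Rccd1 (11.1%). Pseudogene copies of 2 members were themselves above the filter, Ccnb2-ps at 2.40 CPM, against 0.789 CPM for Ccnb2, and Pcna-ps2 at 3.49 CPM, so the split of reads between each gene and its copy is uncertain.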

How the data were processed

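RNA-seq libraries of lumbar dorsal root ganglion were grouped by the zeitgeber time in the labels, 3 per time. Per the labels' protocols, messenger RNA was enriched with oligo(dT), copied with random primers and sequenced as pairs of 150 bases. Per the submitters' processing notes, HISAT2 2.2.1, StringTie 2.1.5 and build GRCm38.p6 were used; no source used here gives their roles, the counting step or the strand setting. The deposited values are estimated counts (expected counts), not whole numbers, and were read as proportional to coverage: the most frequent value, 16.4 to 17.2 by library, was shared by genes of differing length. Exact read numbers are therefore unknown, and a table of approximate reads was tried as an alternative.

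Counts were rounded. Genes kept by edgeR's filterByExpr were tested (25809; 12785 with an Ensembl ID fell below the filter; all 34 members passed) with edgeR 4.0.16 in R 4.3.3, TMM scaling and the quasi-likelihood test, with all 12 libraries in 1 fit and no covariate: any difference between times, a cosine and sine pair with a 24-h period, and 6 contrasts. P-values were adjusted by the Benjamini-Hochberg method over all genes tested, with a threshold of 0.05. Relations used log2(CPM + 0.1) and two-sided permutation tests with 100000 resamples. Rows of 348 assembled loci, 0.203% to 0.231% of the values, were left out. Gene models came from GENCODE release M21. The tests were also run on simulated counts with planted 24-h changes, larger than the median fitted amplitude of the 34 members (0.09 on the log2 scale). That run does not show what could be found at such small amplitudes.

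Members, lists and tests were chosen with earlier results of these data known. Values in every library are given for the 4 mitotic and 4 replication members with the smallest p for any difference between times and for Mki67, Top2a and Pcna; of each other list, called genes are named, and otherwise at most 2 with the smallest p; Wee1, Cdkn1a, Ccnd1, Alas2, Ngp, Arntl and Dbp serve as references. Ube2c, Bub1b and Aurkb were named after their values were seen. Alternatives were DESeq2 1.42.0, limma-trend (limma 3.58.1), RLE scaling, other filters, approximate reads, protein-coding genes alone, a replicate block, the 6 libraries of a contrast alone and leaving out libraries; 1 of them, without the library richest in muscle markers at each time, was added after seeing the data.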

Additional observations from a re-analysis of the deposited data

How the results depend on the processing

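None of the 34 genes was called in any test under any of the 21 alternatives (22 for contrasts), and the smallest adjusted p of a member in any of them was 0.0603, for ZT2 against ZT20. The median log2 fold change of the members kept its sign in each contrast under each alternative, from -0.14 to -0.06 for ZT20 against ZT8. Of the members, 21 to 30 were lower at ZT20 than at ZT8, the lowest count under the filter of at least 1 CPM, which leaves out Mki67, Cdk1 and other members; 23 were without ZT8 replicate 3 and 25 without the library richest in muscle markers at each time. Each named member stayed without a call where it was tested.

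The number of all genes called did depend on the method. DESeq2 called 292 for any difference, 163 for the 24-h component, 107 for ZT14 against ZT2, 68 for ZT20 against ZT8, 83 for ZT8 against ZT2, 106 for ZT14 against ZT8, 115 for ZT20 against ZT14 and 83 for ZT2 against ZT20. Any difference gave 21 with at least 1 CPM in 3 libraries and 20 with protein-coding genes alone. ZT14 against ZT8 gave 1 with no filter, with approximate reads and with protein-coding genes alone, and approximate reads gave 19 for ZT14 against ZT2. With only the 6 libraries compared, ZT14 against ZT2 gave 6, ZT20 against ZT8 2, ZT8 against ZT2 0, ZT14 against ZT8 4 and ZT2 against ZT20 0. Without the 4 libraries richest in muscle markers, any difference gave 8, the 24-h component 4, and ZT14 against ZT2, ZT20 against ZT14 and ZT2 against ZT20 each 0. The cause of these shifts was not tested.

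Leaving out 1 library at a time gave 4 to 22 genes for any difference, 5 to 17 for the 24-h component, 3 to 13 for ZT14 against ZT2, 0 to 10 for ZT20 against ZT8, 1 to 10 for ZT8 against ZT2, 0 to 4 for ZT14 against ZT8, 4 to 17 for ZT20 against ZT14 and 0 to 11 for ZT2 against ZT20. The r of Mki67 then ran from 0.491 to 0.753 with Ngp and from 0.334 to 0.647 with Alas2, and that of Pcna from 0.15 to 0.546 and from 0.0772 to 0.529. Without the 2 farthest libraries these were 0.19, -0.0407, -0.0141 and -0.104, and for Pcna the deviations from the mean of each time gave 0.714 with Ngp and 0.787 with Alas2.

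With the replicate number as a block, the count was 7 for any difference, 4 for the 24-h component, 5 for ZT14 against ZT2, 2 for ZT20 against ZT8 and 3 for ZT8 against ZT2. Libraries of the same number did not deviate together (r from -0.0646 to 0.0777 over 18 pairs, 0 above 0.1), and 3 of 12 libraries correlated best with their own number. These correlations over all genes tested showed no pairing by number, but a pairing that touches few genes would not be seen in them. With 3 libraries per time, and low levels of genes such as Cenpf and Cdk1, differences of any size within the intervals given remain possible. The intervals are not adjusted for the number of genes tested. Some members whose interval left out 0, such as Cdk1 for ZT20 against ZT8, were therefore not called either.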
